A study of Saccharomyces cerevisiae with 4 samples.

Results

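The p24 proteins are small membrane proteins of the early secretory pathway, and the yeast genes described here are EMP24 (YGL200C), ERV25 (YML012W), ERP1 (YAR002C-A), ERP2 (YAL007C), ERP3 (YDL018C), ERP4 (YOR016C), ERP5 (YHR110W) and ERP6 (YGL002W). The members were taken by systematic name, and all 8 were found among the 6679 genes of the deposited table. Each p24 protein has a lumenal GOLD domain, a coiled coil, a membrane span and a short cytosolic tail that binds vesicle coats. The proteins cycle between the endoplasmic reticulum (ER) and the Golgi in COPII and COPI vesicles. Emp24, Erv25, Erp1 and Erp2 assemble with one another, and that complex is known in yeast for loading GPI-anchored proteins, such as the cell wall enzyme Gas1, into vesicles leaving the ER. The family is divided into 4 subfamilies. EMP24 is the beta member, ERV25 the delta member, ERP1, ERP5 and ERP6 are alpha members, and ERP2, ERP3 and ERP4 are gamma members. RefSeq's annotation records ERP1 with ERP6, and ERP2 with ERP4, as pairs left by the whole genome duplication.

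The study sequenced poly(A) RNA of vegetative SK1 yeast, labelled wild type, grown in YPD at 30 degrees and harvested in exponential phase. The vehicle group held 2 libraries with ethanol at the volumes matched to 20 nM and 40 nM of inducer. The inducer group held 2 libraries, with 20 nM and with 40 nM of the compound the labels call bEST. The design text describes the contrast as growth with or without high levels of spliced HAC1 mRNA driven from outside, HAC1 being the gene for the transcription activator of the unfolded protein response. The labels do not state how HAC1 was driven, and they give neither ploidy nor whether a group's libraries came from separate cultures, so p-values measure the spread between these libraries, which may be technical. Levels are given as RPKM, reads scaled to coding length and to the depth of the library. Per-library values are listed as vehicle matched to 20 nM, vehicle matched to 40 nM, inducer at 20 nM and inducer at 40 nM.

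Library depth recovered from the steps in the values was 2133000, 2599000, 1183000 and 4161000 reads. HAC1 (YFL031W) stood at 487, 528, 5922 and 3712 RPKM, and KAR2 (YJL034W), the ER Hsp70 chaperone and a classical target of Hac1, at 354, 395, 4194 and 3612 RPKM. Markers of sporulating cells stayed low: 7 of 8 had a mean under 5 RPKM. SPO11 and NDT80 were listed at 0 in 1 library each. The summed level of the 8 was 12.4, 13.8, 22.4 and 24.6 RPKM. The 1 marker tested, SPS4, stood at 1.96, 2.81, 11.5 and 9.04 RPKM. Both its inducer values were above both vehicle values (log2 fold change 1.74, SE 0.45, adjusted p = 0.0986 by limma). Genes specific to either mating type were higher with inducer. Of 5 alpha-cell genes 4 rose, with sums of 47.7, 37.2, 837 and 481 RPKM, and of 6 a-cell genes 6 rose, with sums of 786, 423, 2007 and 3145 RPKM, where 2.48% of all tested genes rose. Without the 20 nM inducer library 3 and 4 of them rose. None of these 11 was listed at 0 in both vehicle libraries, and their part in the p24 results was not tested.

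The 4 genes of the known complex, EMP24, ERV25, ERP1 and ERP2, had fold changes of 1.53 to 2.51. Both inducer libraries were above both vehicle libraries for each of them, as for 23% of all tested genes. ERP3, ERP4, ERP5 and ERP6 had fold changes of 0.682 to 0.911. Tested genes of 550 to under 750 coding bases had a median log2 fold change of -0.19, and ERP5 and ERP6 lay at that median. EMP24 was the 1 member past the threshold over all genes. It rose 2.0-fold, where 2.48% of tested genes rose. Summed over all 8 genes, p24 mRNA amounted to 3385, 3590, 5320 and 7487 RPKM. In bulk RNA a change in the number of cells that express a gene and a change in RNA per cell cannot be told apart.

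**Figure D1:**
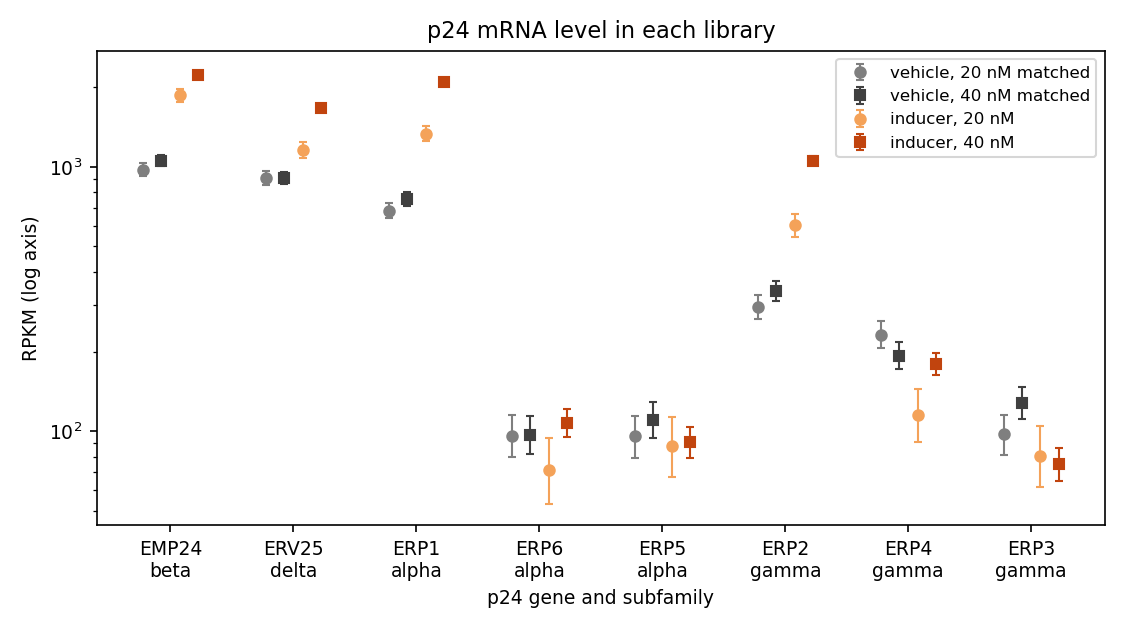
Level of each p24 gene in the 4 libraries, as RPKM on a log axis. Points are single libraries and bars are 95% Poisson intervals, which cover counting error only. The inducer libraries lie above the vehicle libraries for EMP24, ERV25, ERP1 and ERP2, and ERP5, ERP6 and ERP3 stay between 71.5 and 128 RPKM.

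EMP24, the beta member, binds GPI-anchored cargo and was the most abundant p24 mRNA in every library. It stood at 977, 1057, 1866 and 2219 RPKM, from 1150, 1517, 1219 and 5096 reads. Both inducer libraries were above both vehicle libraries. The log2 fold change was 1.00 (SE 0.20, adjusted p = 0.0484 by limma), and 5.13% of all tested genes had a higher one. The call ended without the vehicle library matched to 20 nM (adjusted p = 0.301) or to 40 nM (adjusted p = 0.192), at a pseudocount of 0.1 (adjusted p = 0.0509), with no filter (adjusted p = 0.172) and without a variance trend (adjusted p = 0.109). Over 12 alternatives that leave the dose out of the model, the adjusted p of EMP24 lay between 0.0127 and 0.301.

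ERV25, the delta member and the closest partner of Emp24, stood at 909, 908, 1162 and 1673 RPKM. The vehicle values were nearly equal, and both inducer values were above them. The log2 fold change was 0.62 (SE 0.24, adjusted p = 0.257). The 20 nM and 40 nM inducer libraries differed from their matched vehicles by 1.28-fold and 1.84-fold.

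Among the alpha members, ERP1 stood apart from ERP5 and ERP6. ERP1, the alpha subunit of the complex, stood at 684, 757, 1335 and 2088 RPKM, with both inducer libraries above both vehicle libraries. ERP1 missed the threshold, at a log2 fold change of 1.21 (SE 0.26, adjusted p = 0.0617). It passed in 6 of those 12 alternatives, with adjusted p between 0.0111 and 0.288.

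ERP6, the duplicate of ERP1, stood at 96.0, 97, 71.5 and 108 RPKM. Its vehicle values lay between its inducer values, so the groups overlapped (log2 fold change -0.13, SE 0.26, adjusted p = 0.853). ERP5 stood at 95.5, 110, 87.6 and 90.9 RPKM. Both inducer values of ERP5 were below both vehicle values, with counting intervals that overlapped in all 4 libraries (log2 fold change -0.20, SE 0.22, adjusted p = 0.715). No role specific to Erp5 or Erp6 is given by the annotation beyond membership of the family.

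Among the gamma members, ERP2 was the 1 with higher values in both inducer libraries. ERP2, the gamma subunit of the complex, stood at 295, 339, 601 and 1054 RPKM, with the groups separated. Its log2 fold change, 1.33 (SE 0.30, adjusted p = 0.0721), was the highest of the family, and it too missed the threshold. It passed in 5 of the 12 alternatives, with adjusted p between 0.0136 and 0.33.

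ERP4, the duplicate of ERP2, stood at 232, 193, 115 and 180 RPKM. Both inducer values were below both vehicle values, the 20 nM one by more than the 40 nM one. The log2 fold change was -0.55 (SE 0.28, adjusted p = 0.396), and ERP4 passed the threshold only without the 40 nM inducer library (-0.87, adjusted p = 0.0492, in a range of 0.0492 to 0.999 over alternatives). ERP3 stood at 97.1, 128, 80.7 and 75.1 RPKM, also with both inducer values below both vehicle values. For ERP3 the log2 value was -0.51 (SE 0.24, adjusted p = 0.356). The 20 nM inducer values of ERP3, ERP4, ERP5 and ERP6 rest on 59, 77, 60 and 50 reads, which makes them the least precise of the set.

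Over the family, 1 of 8 members rose and 0 fell at an adjusted p under 0.05 by limma, and 4 of 8 had an unadjusted p under 0.05. Over the 5317 tested genes, 2.48% rose and 0.733% fell, together 3.22%, and 16.3% had an unadjusted p under 0.05. The inducer libraries were both above the vehicle libraries for 4 members and both below for 3, together 7 of 8, against 23%, 23.9% and together 46.9% of tested genes. Limma-voom on recovered reads, chosen after seeing the data, called 3 members higher and 0 lower. Over the 5178 genes it tested, 230 were called higher and 77 lower. With 1 library left out, the log2 fold change lay between 0.88 and 1.13 for EMP24 and between 0.35 and 0.88 for ERV25. It lay between 0.89 and 1.54 for ERP1 and between 0.92 and 1.73 for ERP2. Those of ERP3, ERP4 and ERP5 stayed below 0, and that of ERP6 changed sign. The number of members called changed with the library left out. The median log2 fold change of the 8 members, 0.24, lies in the gap between the higher and the lower members, and that of all tested genes was -0.02.

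**Figure D2:**
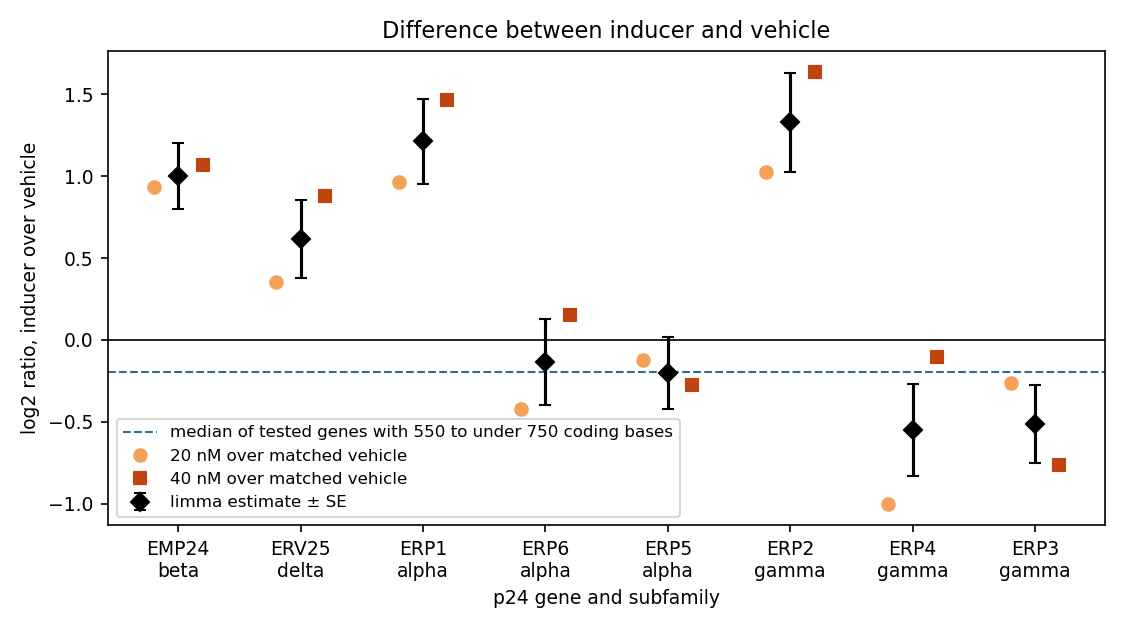
Log2 ratio of inducer over vehicle for each p24 gene. Diamonds with bars are limma estimates ± SE (2 against 2 libraries), circles and squares are the 20 nM and 40 nM libraries over their matched vehicles, and the dashed line is the median of tested genes of like coding length, -0.19. EMP24, ERV25, ERP1 and ERP2 lie above 0 at both doses.

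Paralogs of the alpha and gamma subfamilies, and EMP24 with ERV25, were compared through their ratio within each library, which library scaling does not affect. The ratio of ERP2 to its duplicate ERP4 was 1.27 and 1.76 with vehicle and 5.21 and 5.86 with inducer. In both inducer libraries ERP2 was above, and ERP4 below, both of its own vehicle values, and neither gene passed the threshold. Over all tested genes 23% were separated upward and 23.9% downward. At 40 nM the counting intervals of ERP4 overlapped, at 163 to 198 RPKM with inducer and 171 to 217 RPKM with vehicle. The difference of log2 ratios was 1.88 (SE 0.25, n = 2 against 2, exact two-sided permutation p = 0.333). The ratio of ERP1 to its duplicate ERP6 was 7.12 and 7.80 with vehicle and 18.7 and 19.4 with inducer, a log2 difference of 1.35 (SE 0.07, exact permutation p = 0.333). In either duplicate pair the member of the complex was the more abundant one in every library, and the vehicle and inducer ratios did not overlap.

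The third gamma gene and the third alpha gene gave the same ordering. The ratio of ERP2 to ERP3 was 3.04, 2.64, 7.45 and 14.0 (log2 difference 1.84, SE 0.47), and that of ERP1 to ERP5 was 7.16, 6.86, 15.2 and 23.0 (1.41, SE 0.30). The ratio of EMP24 to ERV25 was 1.07, 1.16, 1.61 and 1.33 (0.38, SE 0.15), the smallest of the separated differences. In the other 2 pairs compared, both of members outside the complex, the log2 difference was -0.07 (SE 0.28) for ERP5 less ERP6 and 0.04 (SE 0.50) for ERP3 less ERP4, and the libraries of the groups overlapped. For the 7 pairs compared, 0.333 is the smallest exact p that 2 against 2 libraries allow, and p adjusted over the pairs was 0.467 for the 5 separated pairs and 1 for the others. No pair could therefore pass a threshold of 0.05.

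The coding sequences of the members were compared in R64, which is not the SK1 genome of these libraries, and read mapping was not tested. None of the 50-base windows of the 8 coding sequences occurs elsewhere in the R64 genome. The closest pair in coding sequence was ERP2 with ERP4, at 70.0% identity over 621 aligned bases, followed by ERP1 with ERP6 at 63.1% over 651. All other pairs were between 52.5% and 59.9% identical. No annotated gene overlaps any of the 8.

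The make-up of p24 mRNA shifted accordingly. EMP24, ERV25, ERP1 and ERP2 together held 84.6% and 85.3% of the summed p24 RPKM with vehicle and 93.3% and 93.9% with inducer. ERP4 went from 6.85% and 5.38% to 2.17% and 2.40%, and ERP3 from 2.87% and 3.57% to 1.52% and 1.00%. ERP2 went from 8.71% and 9.44% to 11.3% and 14.1%. ERV25 took a smaller share with inducer, 21.8% and 22.3% against 26.9% and 25.3%, although its own RPKM was higher. Shares of a sum are tied to one another, so they were not tested.

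**Figure D3:**
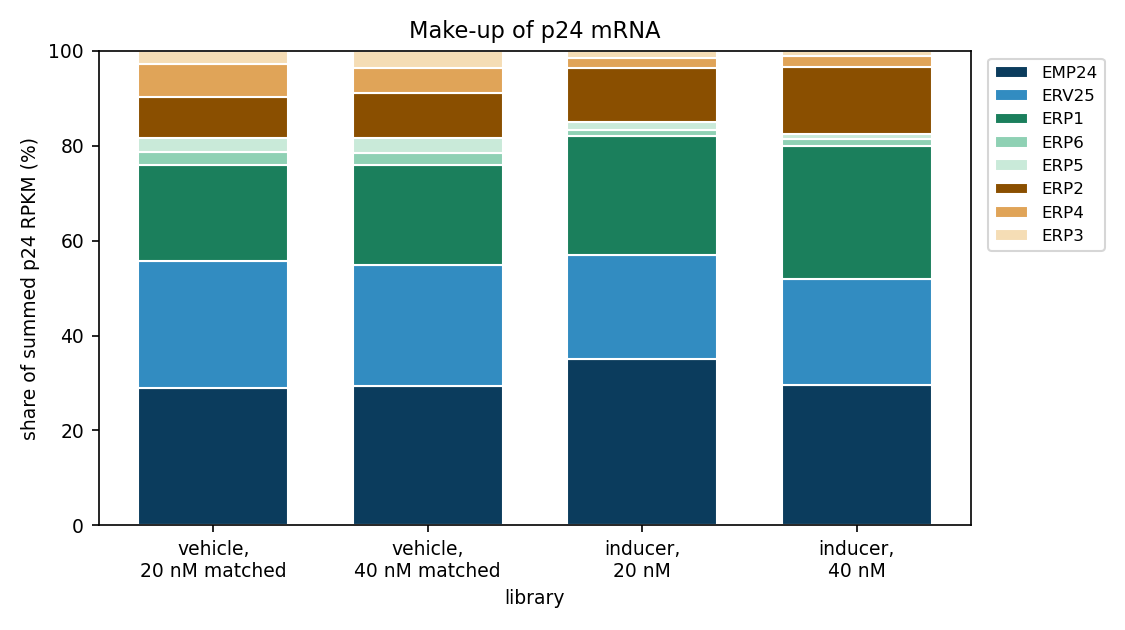
Share of the summed p24 RPKM held by each gene, in percent, 1 bar per library. EMP24, ERV25, ERP1 and ERP2 hold 84.6% and 85.3% with vehicle and 93.3% and 93.9% with inducer.

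The order of levels differed slightly between groups. With vehicle, the means ran from EMP24 (1017 RPKM, SD 57.0, n = 2) through ERV25 (909), ERP1 (720), ERP2 (317) and ERP4 (212) to ERP3 (113), ERP5 (103) and ERP6 (96.5). The libraries of neighbours did not overlap down to ERP4, and those of ERP3, ERP5 and ERP6 did. With inducer, EMP24 (2042 RPKM, SD 249, n = 2), ERP1 (1712) and ERV25 (1418) overlapped with their neighbours. ERP2 (828) and ERP4 (148) followed without overlap, and ERP6 (89.6), ERP5 (89.2) and ERP3 (77.9) came last. ERP1 thus stood above ERV25 in both inducer libraries and below it in both vehicle libraries.

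Fold changes moved with coding length, more so at 20 nM than at 40 nM, and the p24 genes are short, at 612 to 678 bases. Among 537 tested genes of 550 to under 750 coding bases, the median log2 ratio to the matched vehicle was -0.38 at 20 nM and 0.04 at 40 nM. Among 436 genes of at least 3000 bases it was 0.48 and 0.05. The median log2 fold change went from -0.27 in 805 genes under 550 bases to 0.26 in those longest genes. Set against the median of their own length class, -0.19, the log2 differences were 1.20 for EMP24, 0.81 for ERV25, 1.41 for ERP1 and 1.52 for ERP2. ERP5 and ERP6 lay at that median, with -0.01 and 0.06, and ERP3 and ERP4 at -0.32 and -0.36. In this length class 2.42% of genes rose by the same test, and both inducer libraries were above both vehicle libraries for 14.5% and below for 30.4%. Between the inducer libraries the median log2 ratio of 40 nM to 20 nM was 0.24 in genes under 550 bases and -0.47 in the longest. Between the vehicle libraries it was 0.006 and -0.07. With 1 library per dose, dose cannot be told from a property of the 20 nM inducer library, which had the fewest reads. The class was defined after seeing the data, and why fold changes moved with length was not tested.

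**Figure D4:**
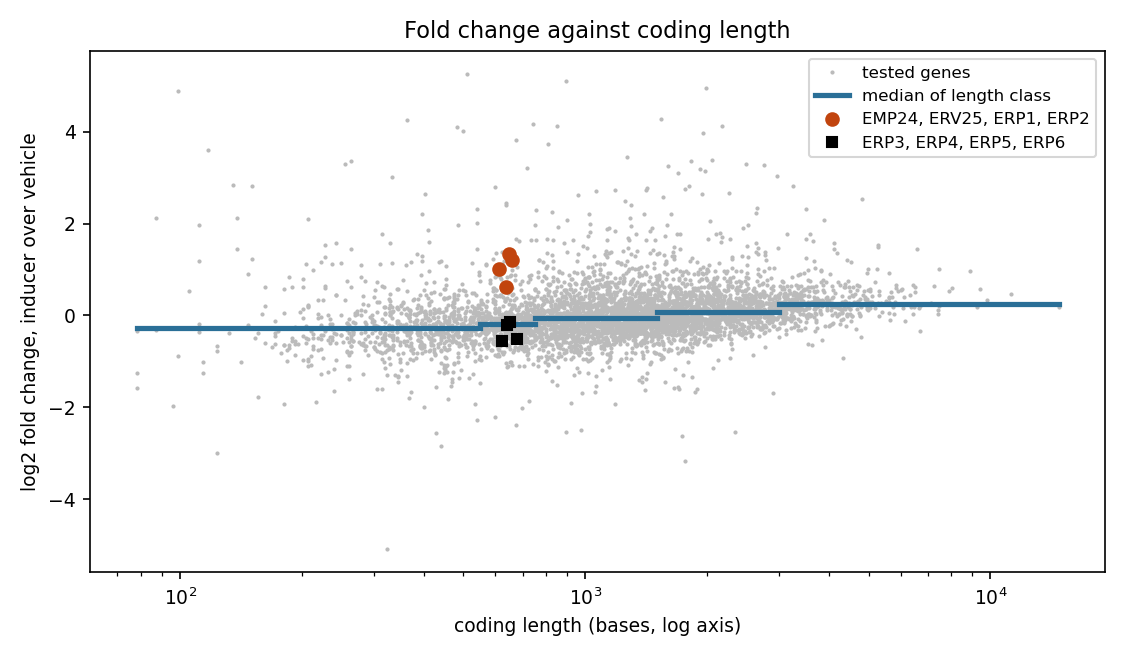
Log2 fold change of inducer over vehicle against coding length in bases on a log axis, for tested genes matched to R64. Blue lines are medians of 5 length classes, which go from -0.27 to 0.26. EMP24, ERV25, ERP1 and ERP2 lie well above the median of their class and ERP3, ERP4, ERP5 and ERP6 lie near or below it.

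By dose, each with 1 library per treatment and so without a test, the 40 nM ratio was above the 20 nM ratio for EMP24 (log2 1.07 and 0.93), ERV25 (0.88 and 0.35), ERP1 (1.46 and 0.96) and ERP2 (1.63 and 1.02). The median of genes of like length shifted the same way between doses. HAC1 went the other way, at 5922 RPKM with 20 nM and 3712 RPKM with 40 nM of inducer. So did KAR2, at 4194 and 3612 RPKM, so a higher nominal dose did not go with more HAC1 mRNA in these libraries. After subtracting the median of the length class at each dose, the values at 20 nM and 40 nM were 1.31 and 1.03 for EMP24, 0.73 and 0.84 for ERV25, 1.35 and 1.43 for ERP1, and 1.40 and 1.60 for ERP2. The order of the doses for EMP24 thus turned with that subtraction. ERP4 had log2 ratios of -1.0 at 20 nM and -0.10 at 40 nM, and ERP3 the reverse order, -0.26 and -0.77. After the same subtraction the values were 0.12 and -0.80 for ERP3 and -0.62 and -0.14 for ERP4. They were 0.26 and -0.31 for ERP5 and -0.04 and 0.11 for ERP6. ERP3 and ERP5 thus lay above the median of their length class at 20 nM and below it at 40 nM.

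Promoters were searched for words known from the response. Hac1 binds the unfolded protein response element, whose best-known form has the core CAGCGTG, and a second form has the core TACGTG. The 500 bases before each start codon in R64, the S288C reference and not the SK1 genome, were read on either strand for CAGCGTG, for the looser CAGNGTG, which includes every CAGCGTG, and for TACGTG. The windows that held a match are shown because ERP1, ERP2 and ERV25 were among the members higher with inducer, with the KAR2 element for comparison. Each run is 30 bases from R64 in the direction of transcription, and capitals mark the match.

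KAR2, chrX:381156-381185, plus strand: gaggaactggaCAGCGTGtcgaaaaagttg

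ERP1, chrI:154871-154900, minus strand: tctctatttttgTACGTGaatttattctgt

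ERV25, chrXIII:246012-246041, plus strand: accgttggttgtTACGTGttatatgtttgt

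ERP2, chrI:138697-138726, minus strand: gccaaggaagcCACTCTGtgaactttaaat

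The match of KAR2 ended 153 bases before the start codon, that of ERP1 158 bases, that of ERV25 86 bases and that of ERP2 363 bases. The ERP2 match is CAGNGTG read on the opposite strand. EMP24, ERP3, ERP4, ERP5 and ERP6 had no match to these words in the window, which says nothing of the factor. CAGCGTG was in 2.33% of 6006 promoters of that length, CAGNGTG in 10.2% and TACGTG in 13.1%. Among the 127 of these promoters whose genes rose, the shares were 5.51%, 18.9% and 29.1%, which were not tested. ERP1, ERV25 and ERP2 are not among those 127, and EMP24, the 1 member that rose, had no match. Of the 8 members 0 held CAGCGTG, 1 held CAGNGTG and 2 held TACGTG. A match is a run of letters and not a tested site.

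Neighbours across the promoter gave further context. ERP1 and SWD1, a subunit of the COMPASS histone methyltransferase, diverge from a 280-base region that holds the TACGTG match. SWD1 stood at 54.9, 42.9, 94.8 and 104 RPKM, with a log2 fold change of 1.02 (SE 0.23, adjusted p = 0.0735). EMP24 and YIP4, a Rab-interacting membrane protein gene, diverge from 285 bases. YIP4 stood at 80.3, 125, 88.7 and 105 RPKM, with overlapping groups and a log2 fold change of -0.05 (SE 0.28). The neighbour upstream of ERV25, UBX2, had 0.42 (SE 0.25), and those of ERP3, ERP4, ERP5 and ERP6 lay between -0.07 and 0.35. The neighbour of ERP2 is a tRNA gene and was not analysed here. These neighbours were named after their values were seen, by position alone.

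Other genes of the early secretory pathway were counted by list. The coat genes, through which p24 proteins leave and return to the ER, were mostly higher with inducer, though few passed the test. Of 10 COPII coat and assembly genes 1 rose and 0 fell, with a median log2 fold change of 1.14, and 9 had both inducer libraries above both vehicle libraries. SFB2, a Sec24 homologue that selects cargo, was the 1 that rose, at 30.8, 25.1, 96.3 and 75.2 RPKM (1.58, SE 0.24, adjusted p = 0.0183). Of 13 COPI coat and Arf cycle genes 1 rose and 0 fell, with a median of 0.61 and 12 separated upward. Over all tested genes 2.48% rose and 23% were separated upward. In each of these lists 7 genes have at least 1500 coding bases. Of tested genes of 1500 to under 3000 bases 29.3% were separated upward, and of longer ones 37.4%. The median log2 fold changes of these classes were 0.07 and 0.26. In the longest class the median log2 ratio to the matched vehicle was 0.48 at 20 nM and 0.05 at 40 nM. The part of length in the medians of the coat lists was not tested. The COPI gene that rose was RET3, the zeta subunit of the coat, at 848, 757, 1629 and 1871 RPKM (1.12, SE 0.20, adjusted p = 0.0318). SFB2 lost its call without the 40 nM vehicle or the 20 nM inducer library (adjusted p = 0.0622 and 0.0556), and RET3 without a variance trend (adjusted p = 0.0791) or either vehicle library (adjusted p = 0.101 and 0.239).

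Cargo receptors other than p24 were counted in the same way, beside 2.48% of all tested genes that rose and 0.733% that fell. Of 8 tested, with VMA21, an assembly factor of the vacuolar ATPase, among them, 1 rose and 0 fell, and the median was -0.25. Both inducer libraries were above both vehicle libraries for 1 and below for 4, against 23% and 23.9% of all tested genes. None of the 8 has 1500 coding bases or more. Of tested genes under 550 bases 12.2% were separated upward and 45.1% downward. The shares were 14.5% and 30.4% at 550 to under 750 bases, and 21.3% and 23.9% at 750 to under 1500. The part of length in this list was not tested. ERV29, the receptor of soluble cargo such as pro-alpha factor, was the 1 that rose, at 325, 353, 836 and 1354 RPKM (1.65, SE 0.28, adjusted p = 0.0249), and it passed with any 1 library left out but not without a variance trend (adjusted p = 0.0531). With no filter SFB2, RET3, ERV29 and YPS1 did not pass, at adjusted p of 0.159 to 0.231. Of 13 ER to Golgi tethers and SNAREs 0 passed in either direction (median -0.07), and of the retrieval receptors ERD2 and RER1 neither did, with 0.98 (SE 0.22) and -0.41 (SE 0.34). Their values point opposite ways.

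Genes tied to the known cargo of the complex were also counted, beside 2.48% of all tested genes that rose and 0.733% that fell. Of 7 genes of GPI anchor remodelling, which marks anchored proteins for export from the ER, 0 passed by limma, and the median was 0.24. Of 13 GPI-anchored cell surface proteins 1 rose and 0 fell, with a median of -0.16 and values between -1.26 and 1.44. The 1 that rose was YPS1, an aspartic protease, at 21.3, 19.6, 66.6 and 48.8 RPKM (1.44, SE 0.25, adjusted p = 0.0266), a call lost without the 40 nM vehicle or the 20 nM inducer library (adjusted p = 0.0681 and 0.0592) and without a variance trend (adjusted p = 0.0513). GAS1, the classical cargo of the p24 complex, stood at 524, 666, 576 and 484 RPKM, with overlapping groups. GAS1 was named after its value was seen.

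**Figure D5:**
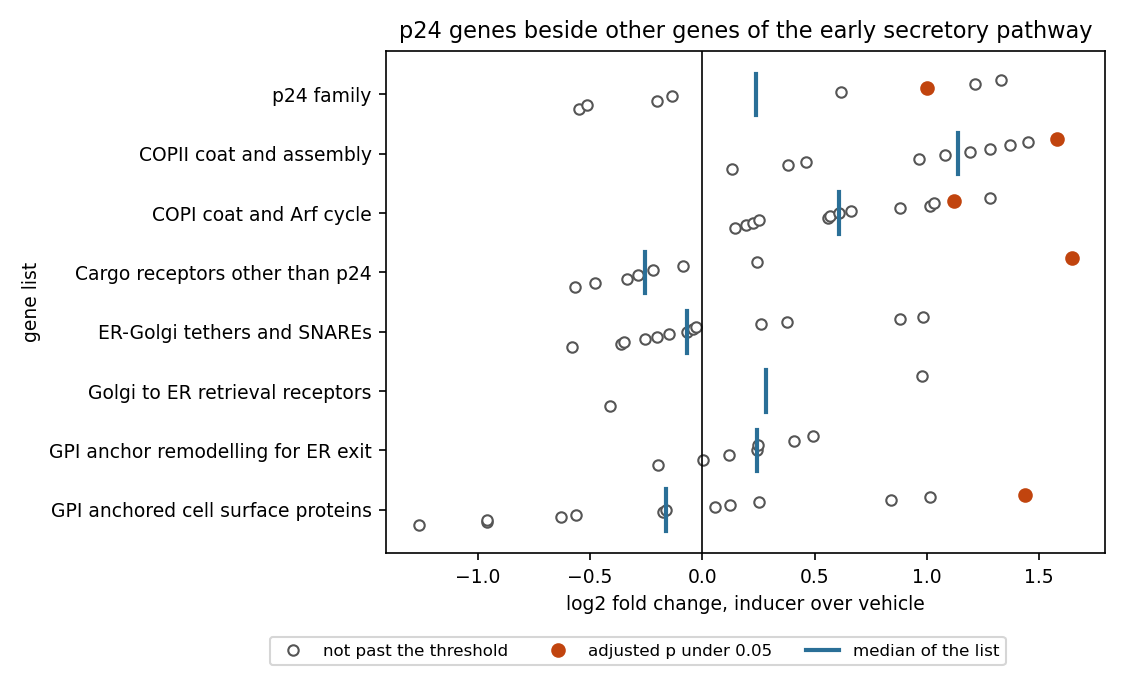
Log2 fold change of inducer over vehicle for the p24 family and 7 lists, of the early secretory pathway and of GPI-anchored cell surface proteins. Each circle is a gene, filled where adjusted p is under 0.05, and blue bars are list medians, from 1.14 for COPII to -0.25 for the other cargo receptors. The p24 genes fall on either side of 0 with none between -0.13 and 0.62.

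Profiles over the 4 libraries were compared by root mean square distance of centred log2(RPKM + 1) values. To the mean profile of EMP24, ERV25, ERP1 and ERP2, the nearest genes were SEC12 (distance 0.05), PMT5 (0.06), SEC66 (0.07), TPM1 (0.07) and AGP3 (0.07). SEC12, which activates Sar1 to start COPII assembly, stood at 37.0, 37.5, 67.9 and 93.9 RPKM. PMT5, an O-mannosyltransferase, stood at 30.4, 33.7, 54.1 and 74.1 RPKM, and SEC66, of the Sec63 translocation complex, at 190, 214, 348 and 561 RPKM. TPM1 encodes tropomyosin and AGP3 an amino acid permease, the latter at 3.81 to 10.7 RPKM. None of these passed the threshold, with adjusted p of 0.0674 to 0.303.

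Within the family, ERP1 and ERP2 had the most alike profiles. ERP2 ranked 3 of 5316 other genes by distance to ERP1, and ERP1 ranked 2 by distance to ERP2, at a distance of 0.08. The closest member to EMP24 was ERP1, at rank 109, and the closest to ERV25 was EMP24, at rank 394. For ERP3, ERP4, ERP5 and ERP6 the closest member ranked between 276 and 1466. Such ranks rest on 4 libraries and describe them only.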

How the data were processed

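The authors deposited 1 table of values per gene and library, whose header names no unit. The authors' deposited values were taken as RPKM for the following reason. Times the R64 coding length reduced by 60 bases, each library's low values (up to 50 reads) were multiples of 1 amount, 92.8% to 93.5% of them to within 0.05 reads. STAR and SAMtools appear in the submitters' processing notes. Counting tool, build, strand setting and filters were not stated in what was used here. Libraries were directional poly(A) libraries read as single ends, per the labels' protocols.

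Inducer was compared with vehicle by limma (version 3.58.1, R version 4.3.3), with a variance trend, on log2(RPKM + 1) of the 5317 genes whose mean reached 5 RPKM. All 8 members passed that filter. P-values were Benjamini-Hochberg adjusted over these genes, with 0.05 as threshold. Fold changes are on that scale, which understates those of low genes. Dose counts as spread. Recovered reads gave depth and 95% Poisson intervals, which cover counting error only. Members and lists were chosen with earlier results of these data known. Genes named are the members, HAC1, KAR2, the 5 nearest profiles and genes past the threshold in the early secretory pathway and GPI-anchored protein lists. Mating-type genes past the threshold were counted and not named. Others are said to be outside that rule. SPO11, NDT80, SPS4, VMA21, ERD2 and RER1 are outside it too, named to describe their lists. Names, lengths and sequences came from RefSeq R64, which matched 5982 of 6679 rows. Alternatives changed pseudocount, filter, scaling, trend, dose block and libraries. Simulated data were used to check the limma fit.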

Additional observations from a re-analysis of the deposited data

Results flagged for a closer look

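ERP6 differed from its matched vehicle by a log2 ratio of -0.42 at 20 nM and of 0.15 at 40 nM, so the doses moved opposite ways. Each dose has 1 library per treatment and the difference was not tested. The 20 nM value rests on 50 reads, with a counting interval of 53.1 to 94.3 RPKM that overlaps that of its vehicle, 79.6 to 115 RPKM.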

How the results depend on the processing

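Against 132 genes higher and 39 lower over all genes, and 1 p24 member higher and 0 lower, counts moved as follows. Without a filter 0 genes and 0 members were called by limma, with 896 genes at an unadjusted p under 0.05. The dose as a replicate block gave 243 higher and 123 lower, and 3 members higher. The same-dose deviations correlated at -0.21 over genes, so the doses gave no sign of pairing. A block that crosses the doses, chosen after seeing the data and with no basis in the design, gave 363 and 305, and 3 members. Crossing the doses reverses the sign of that correlation by construction, so these counts are no separate support. Limma-voom on recovered reads, also chosen after seeing the data, gave 230 and 77, and 3 members. Median scaling called 65 genes lower, and limma without trend 25. Members called higher numbered 0 at a pseudocount of 0.1 and without trend, 2 at a mean of at least 20 RPKM, and 3 with median or upper-quartile scaling. With 1 library left out, 113 to 333 genes were higher and 32 to 460 lower, and 0 to 3 members were higher and 0 to 1 lower. The highest gene counts came without the 40 nM inducer library. The cause of these moves was not tested. Of 112 recomputed member fold changes with a test, 90 kept direction and side of the threshold, 16 gained a call, 5 lost one and 1 changed sign. Relative to genes of like coding length, a value with no test, 7 of 8 kept their sign. Both sign changes were of ERP6, at 0.060 relative to genes of like coding length and between -0.43 and 0.16 with 1 library left out. The differences ERP5 less ERP6 (-0.33 to 0.20) and ERP3 less ERP4 (-0.33 to 0.41) also changed sign there. The other 5 pair differences kept their sign throughout, at 0.25 to 0.52 for EMP24 less ERV25, 1.12 to 1.71 for ERP1 less ERP5, 1.28 to 1.41 for ERP1 less ERP6, 1.39 to 2.30 for ERP2 less ERP3 and 1.65 to 2.11 for ERP2 less ERP4. Where a group kept 1 library, that library was assumed to vary like the other group's. Depth limits ERP3, ERP4, ERP5 and ERP6 most, at 50 to 77 reads in the 20 nM inducer library.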
